A study of Mus musculus with 6 samples.

Results

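The TRIM family was followed in mouse iKAP colorectal cancer cells that were labelled as carrying either an IRF2 open reading frame or GFP. Members were taken by name: every gene whose platform annotation symbol is Trim followed by digits and an optional letter, in a probe set annotated to that gene alone. This gave 58 TRIM genes of 18193 genes on the array, read by 111 probe sets, and 38 of them were bright enough to be tested, among 12795 genes in all. The brightest probe set, by mean log2 intensity over the 6 arrays, stood for its gene.

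Both groups were made from 1 primary culture, number 3346, of the iKAP tumour model, whose engineered alleles, Apc among them, are thus common to the control and the IRF2 cells. Per the labels, each construct was in the lentiviral plasmid pLenti6.3 and was stably expressed. Total RNA was labelled with biotin and hybridised to 6 Affymetrix 3' expression arrays, 3 labelled as GFP control and 3 labelled as carrying the IRF2 open reading frame. Growth was in DMEM with a tetracycline-free supplement. Whether same-group arrays stem from separate cultures is unstated, so p-values reflect the spread among these arrays alone, which may be technical. The small number of arrays limits the precision.

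TRIM proteins are built from a RING domain, B-box zinc fingers and a coiled coil, followed by a C-terminal domain that differs between members and gives them their targets. Most are E3 ubiquitin ligases, and several act in antiviral defence. Trim25 and its relatives tune the RNA sensor RIG-I, Trim21 binds antibody-coated virus in the cytosol, and some Trim5-like proteins restrict retroviruses. Whether the mouse Trim5-like members do so was not tested here. Interferon induces part of the family through the interferon-stimulated response element, a DNA element that interferon regulatory factors, IRF2 among them, can bind.

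The core of that element, GAAA, any 2 bases and GAAA again, was searched for on both strands of the RefSeq promoter windows of GRCm38.p6, each running from 250 bases before to 50 after an annotated start. Of the 47 TRIM genes in that table, 9 (19.1%) had at least 1 match, where 3.99% of the 27025 genes in the table did. Some genes have several windows, and a match in any of them counted. The matches fell mainly in 1 gene cluster on chromosome 7, in which 6 of 7 genes had one, and in Trim21, Trim26 and Trim2. Trim2 had a match in only 1 of its windows, while Trim30a had a match in each of its windows. A match is a description of the letters in the window and shows no binding. Among genes with a window, the motif was in 3 of the 7 that rose and 1 of the 4 that fell. It was in 1 of the 17 that did not pass and 4 of the 19 under the intensity filter. This split was not tested and gives no support of its own. Trim12c, which rose, and Trim30a, which did not pass, had GFP means (7.84 and 11.2) under the filter of 11.3. Trim60, which fell, and Trim61, which did not pass, have the same window, without a match, and it is counted in both groups. All 9 genes with a match are shown, since the motif was found among genes that rose, fell, did not pass and lay under the filter. Thirty-base stretches around the matches are given 5′ to 3′ on the strand of the gene, with the matched letters in capitals. For Trim30a the stretch from 1 window is given. TTTC, any 2 bases and TTTC is the same core read on the opposite strand.
Trim21, chr7:102565447-102565476, minus strand: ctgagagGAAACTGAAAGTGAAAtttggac
Trim26, chr17:36836979-36837008, plus strand: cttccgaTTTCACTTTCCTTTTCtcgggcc
Trim12c, chr7:104353359-104353388, minus strand: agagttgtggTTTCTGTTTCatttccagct
Trim12a, chr7:104315466-104315495, minus strand: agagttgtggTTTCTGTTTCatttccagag
Trim5, chr7:104288136-104288165, minus strand: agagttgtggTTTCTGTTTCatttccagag
Trim34a, chr7:104244457-104244486, plus strand: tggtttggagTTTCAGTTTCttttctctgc
Trim30a, chr7:104465210-104465239, minus strand: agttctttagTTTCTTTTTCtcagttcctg
Trim30d, chr7:104507871-104507900, minus strand: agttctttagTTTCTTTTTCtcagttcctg
Trim2, chr3:84212791-84212820, minus strand: tcagctttggTTTCCTTTTCtctaagacag

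In Trim21 and Trim26 a pair of overlapping matches runs into one tract, which begins 13 bases after the start site in Trim21 and 160 bases before it in Trim26. In Trim12c the match begins 29 bases before the start site, and in Trim34a 10 bases after it. Several of the cluster genes are not independent examples: the Trim5 and Trim12a windows share an unbroken run of 241 bases, the Trim12a and Trim12c windows one of 71, and a Trim30a window shares one of 118 with that of Trim30d. Trim34a shares at most 10 bases in a row with any of the others, and the Trim5 and Trim12 windows at most 9 with those of Trim30a and Trim30d. The 250 bases upstream of the start sites of Trim26 and of Trim12c follow, with the matches in capitals. They are the upstream matches of members that rose; Trim12c had the largest rise of the tested members, though with 16 added before the log Trim21 (0.50) exceeded it (0.47).
Trim26, chr17:36836896-36837145, plus strand: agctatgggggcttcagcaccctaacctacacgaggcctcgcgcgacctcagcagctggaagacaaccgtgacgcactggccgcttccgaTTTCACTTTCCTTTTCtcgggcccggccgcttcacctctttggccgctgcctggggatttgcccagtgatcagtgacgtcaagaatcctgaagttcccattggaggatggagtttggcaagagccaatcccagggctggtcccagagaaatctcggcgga
Trim12c, chr7:104353350-104353599, minus strand: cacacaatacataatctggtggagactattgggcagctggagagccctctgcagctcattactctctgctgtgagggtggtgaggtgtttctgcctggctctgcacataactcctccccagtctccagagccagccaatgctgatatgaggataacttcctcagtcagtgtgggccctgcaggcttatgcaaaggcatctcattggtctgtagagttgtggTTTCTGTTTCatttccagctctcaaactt

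The gene that the labels name was read by 1 probe set annotated to Irf2 alone. It gave 65.4, 60.5 and 62.0 on the GFP arrays and 37.0, 36.6 and 35.2 on the other 3, so that it was lower where the labels put the IRF2 construct (log2 change -0.79, SE 0.06). Neither the species of the open reading frame nor the stretch of transcript under this probe set is stated, and whether the probe set sees the construct was not tested. These are therefore called the IRF2-labelled arrays. All directions given here follow the labels; were the labels of the groups exchanged, every rise would be a fall and every fall a rise, and whether they are exchanged was not tested. Of 12 colon epithelial markers, Krt20, Vil1 and Cdx1 lay under the intensity filter, and 9 were tested. Of these, Epcam (log2 change -0.81) and the cadherin genes Cdh1 (-0.75) and Cdh17 (-0.57) fell, Krt8 (0.50) and Krt18 (0.08) rose, and the median over the 9 was -0.09. The summed level of the 12, which the keratins dominate, ran from 14570 to 14710 on the GFP arrays and from 16060 to 16200 on the IRF2-labelled arrays. Of the 6 immune markers measured, Ptprc, Itgam and Adgre1 lay under the filter, and their summed level was 183 to 203 against 200.3 to 215; Cd14 rose (0.18) with overlapping arrays. Of 5 tested fibroblast markers, Pdgfra (0.70) and Vim (0.07) rose, Pdgfrb (-0.40) fell, and Col1a2 and Dcn did not pass. Over all genes tested, 36.3% passed. The 6 fibroblast markers listed summed to 9618 to 9751 against 9980 to 10400, a sum that Vim dominates. The part of these shifts in the TRIM results was not tested.

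TRIM genes changed in both directions, and most changes were small. Of the 38 tested, 9 rose and 4 fell on the IRF2-labelled arrays (limma adjusted p under 0.05), which is 34.2% of them. Over all genes tested the share was 36.3%, of which 16.5% rose and 19.8% fell, so the family as a whole stood near the background. In bulk RNA, fewer cells that express a gene and less of its RNA per cell cannot be told apart. The median log2 change over the 38 was 0.06, with 23 genes above 0 and 15 below, against a median of -0.0007 over all genes. The groups' arrays were fully separated in 55.3% of the tested TRIM genes and in 46.2% of all genes tested. Only 2 rose and 2 fell by at least 0.3 on the log2 scale, namely Trim12c, Trim21, Trim47 and Trim2; over all genes 5.10% rose and 4.89% fell by that much.

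**Figure D1:**
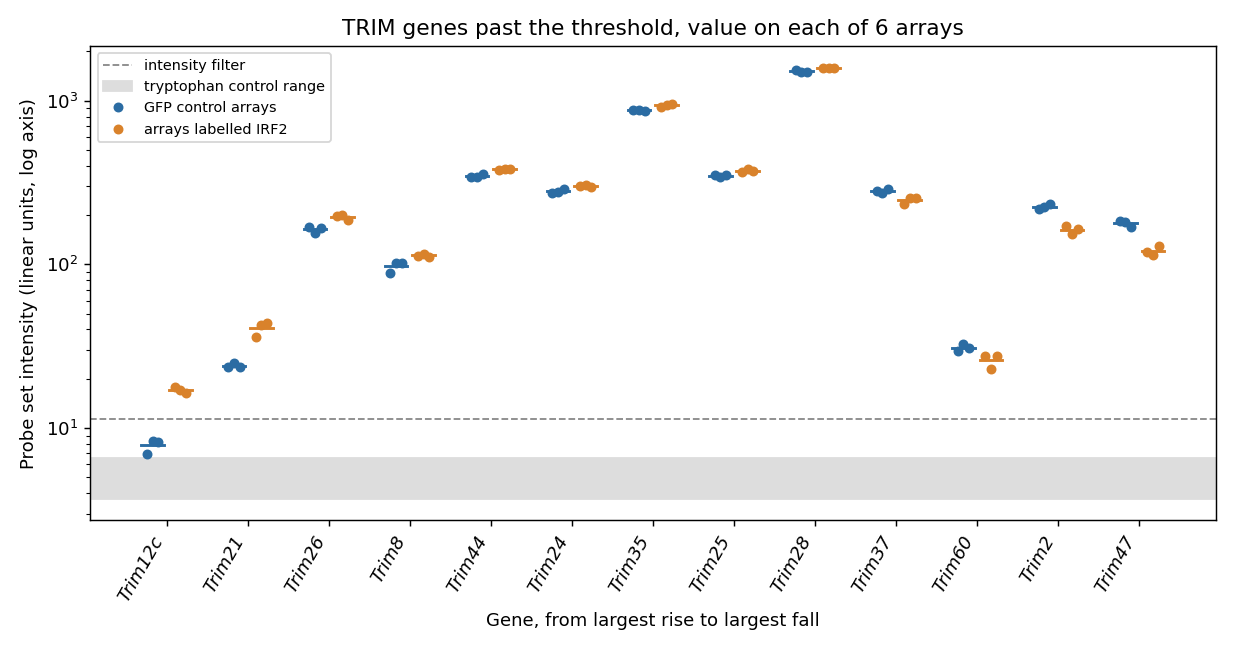
Intensity of the brightest probe set (log axis) on each of 6 arrays for the 13 TRIM genes past the threshold, with GFP arrays in blue, IRF2-labelled arrays in orange and the group mean as a line. The groups do not overlap in any of the 13; Trim12c alone starts from under the intensity filter of 11.3 (dashed), and heights of different genes are not comparable because each probe set has its own brightness.

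The interferon-linked members with a PRY-SPRY domain, the domain that binds the target, held the largest rises. The class has 10 genes on the array, 5 of which were tested: Trim12c, Trim21, Trim26 and Trim25 rose, and Trim30a did not pass. The median log2 change of these 5 was 0.25. That count gives no support of its own, because Trim12c passed the intensity filter only through the arrays on which it was high. Trim30a too had a GFP mean (11.2) under the filter of 11.3. The class was also drawn up with earlier results of these data known. Over all genes tested, 36.3% passed.

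Trim12c, a rodent relative of the retroviral restriction factor Trim5, gave 6.99, 8.35 and 8.19 on the GFP arrays and 17.9, 17.2 and 16.3 on the IRF2-labelled arrays. Every IRF2-labelled array read above every control array. The log2 change was 1.13 (SE 0.10, limma adjusted p = 3.37e-07), which came to 0.47 with 16 added before the log, since the control values lie little above the 3.69 to 6.52 of the array's tryptophan controls, which no mouse transcript should fill. Its other probe set, under the filter, read 6.11 ± 0.518 and 7.66 ± 1.62 (SD, n = 3 each) with overlapping arrays.

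Trim21, the cytosolic antibody receptor and ligase, gave 23.5, 25.1 and 23.6 on the GFP arrays and 36.2, 42.5 and 44.0 on the IRF2-labelled arrays. The lowest IRF2-labelled array lay well above the highest control. The log2 change was 0.76 (SE 0.08, limma adjusted p = 4.03e-06), or 0.50 with 16 added before the log. Its second probe set moved further, from 14.2 ± 2.85 to 33.8 ± 0.589 (SD, n = 3 each), a log2 change of 1.27.

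Trim26, a ligase encoded in the major histocompatibility region, gave 169.0, 155 and 166 on the GFP arrays and 197, 199 and 187 on the IRF2-labelled arrays. The groups did not overlap, and the log2 change was 0.25 (SE 0.04, limma adjusted p = 0.000368). The other Trim26 probe set gave 0.32 and also passed. Trim25, which attaches ubiquitin chains that activate RIG-I, gave 354, 340 and 350 on the GFP arrays against 366, 380 and 374, a log2 change of 0.10 (SE 0.03, limma adjusted p = 0.0164). Its 3 probe sets gave 0.10, 0.16 and 0.14, all in the same direction and with arrays that did not overlap, though the third did not pass when each was tested on its own (limma adjusted p = 0.0582). The call of the brightest was lost without the replicate 2 GFP array (0.09, limma adjusted p = 0.058), without the replicate 2 IRF2-labelled array (0.09, 0.0781) and without the intensity trend in the fit (0.0549).

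Trim30a, which restrains signalling to NF-kappaB, gave 10.0, 14.2 and 9.37 on the GFP arrays and 13.2, 11.0 and 13.9 on the IRF2-labelled arrays. These ranges overlap, and the log2 change of 0.20 (SE 0.14, limma adjusted p = 0.301) did not pass. The replicate 2 control array was the highest of its group, and without that array the gene passed at 0.38 (limma adjusted p = 0.0183). Without the replicate 3 GFP array the value was 0.08 (0.729), without the replicate 1 GFP array or the replicate 3 IRF2-labelled array 0.13 (0.573 and 0.581), and with 16 added before the log 0.08.

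Trim30a and Trim12c lie with Trim6, Trim34a, Trim5, Trim12a and Trim30d in the chromosome 7 cluster, in which the latter 5 were too dim to be tested. Trim34a, a further Trim5 relative, gave 6.36, 7.32 and 7.11 on the GFP arrays and 15.0, 16.1 and 15.5 on the IRF2-labelled arrays. All 3 IRF2-labelled arrays stood above the filter of 11.3 and all 3 controls below it, so that its overall mean fell short. In a fit of all genes with no filter, in which 24.9% of genes passed, its log2 change was 1.17 (SE 0.09, limma adjusted p = 1.66e-07). Its second probe set stayed at 4.21 ± 0.0801 and 4.09 ± 0.159 (SD, n = 3 each), inside the tryptophan control range.

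The other genes of the cluster read near or below the filter. Trim6 read 10.5 ± 1.27 and 10.5 ± 0.175 (SD, n = 3 each), and Trim30d read 5.35 ± 0.220 and 5.52 ± 0.185. Trim12a, whose promoter window shares the run of 71 bases with that of Trim12c, read 6.66 ± 0.138 on the GFP arrays and 6.04 ± 0.533 on the IRF2-labelled arrays in its brighter probe set, and 5.04 ± 0.490 and 6.63 ± 0.482 in the other. These 2 probe sets point in opposite directions at or near the level of the tryptophan controls. Trim5 read 4.04 ± 0.305 and 4.84 ± 0.193, also at that level. Its IRF2-labelled arrays were all above its controls, and it passed in the fit with no filter (0.26, SE 0.08, limma adjusted p = 0.0313). Members of the cluster are alike in sequence, so that probe sets may be shared between them.

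**Figure D2:**
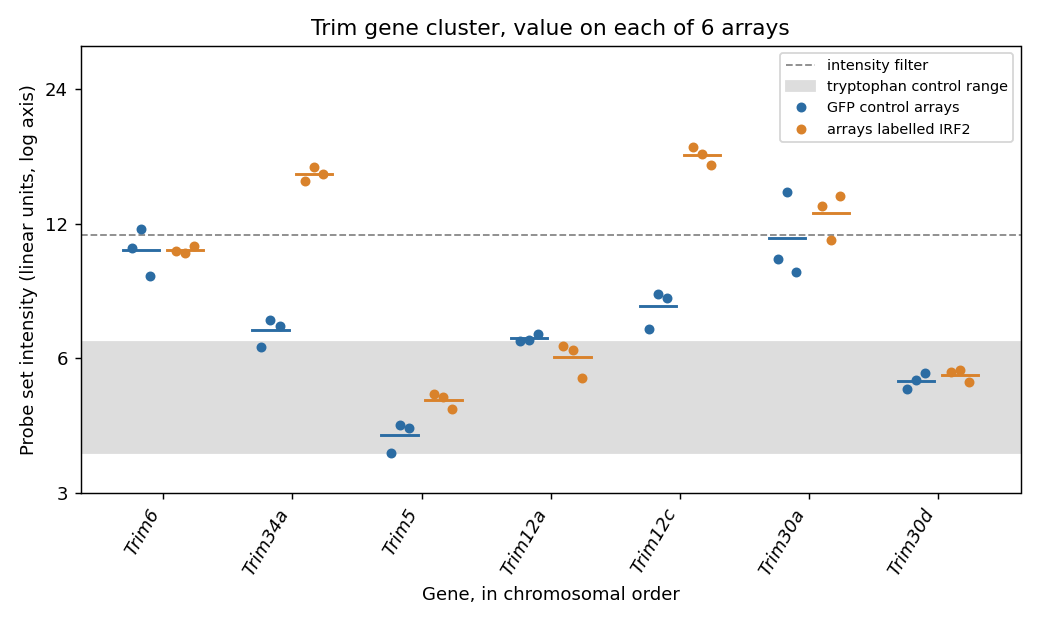
Intensity of the brightest probe set (log axis) on each array for the 7 genes of the chromosome 7 cluster in chromosomal order, with the intensity filter of 11.3 dashed and the range of the tryptophan controls (3.69 to 6.52) shaded. Trim34a and Trim12c read higher on all 3 IRF2-labelled arrays (orange) than on any GFP array (blue), while Trim6, Trim30a and Trim30d overlap; Trim5 (higher) and Trim12a (lower) do not overlap but lie at or near the shaded range.

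Trim14, a member without a RING domain that acts as a mitochondrial adaptor in RNA sensing, also fell just short of the filter. It gave 8.26, 10.8 and 9.97 on the GFP arrays and 12.3, 14.6 and 12.9 on the IRF2-labelled arrays. The groups did not overlap, and with no filter the log2 change was 0.46 (SE 0.11, limma adjusted p = 0.00558). Its second probe set read 4.20 ± 0.349 on the GFP arrays and 4.62 ± 0.671 on the IRF2-labelled arrays (SD, n = 3 each). Those arrays overlapped and lay inside the tryptophan control range. Trim34a and Trim14 were singled out after their values were seen. Trim56, a ligase of antiviral DNA and RNA sensing, was well above the filter at 176 ± 5.85 and 187 ± 9.49 (SD, n = 3 each) with overlapping arrays. Its log2 change of 0.09 (SE 0.05, limma adjusted p = 0.16) did not pass, though it did without the replicate 1 IRF2-labelled array (0.13, 0.0454).

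The largest falls were in 2 members of other branches. Trim47, a PRY-SPRY ligase outside the interferon-linked group, gave 184, 182 and 170.3 on the GFP arrays and 119, 113 and 129 on the IRF2-labelled arrays. The highest IRF2-labelled array stayed far below the lowest control, and the log2 change was -0.57 (SE 0.05, limma adjusted p = 6.05e-07). It has 1 probe set. Trim65, the next gene along chromosome 11 and a ligase for the RNA sensor MDA5, went from 24.1 ± 1.88 to 21.6 ± 0.851 (SD, n = 3 each), a log2 change of -0.16 that did not pass (limma adjusted p = 0.166).

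Trim2, an NHL repeat ligase known for ubiquitinating a neurofilament chain in neurons, gave 217, 223 and 235 on the GFP arrays and 171, 152 and 165 on the IRF2-labelled arrays. The groups were well apart, with a log2 change of -0.47 (SE 0.05, limma adjusted p = 2.04e-06). All 5 of its probe sets above the filter fell, by between -0.42 and -0.69, and the sixth, at 8.76 ± 1.05 on the controls, did not separate the groups. Of the other tested NHL members, Trim32 and Trim3 had log2 changes of 0.11 and 0.10 and did not pass.

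**Figure D3:**
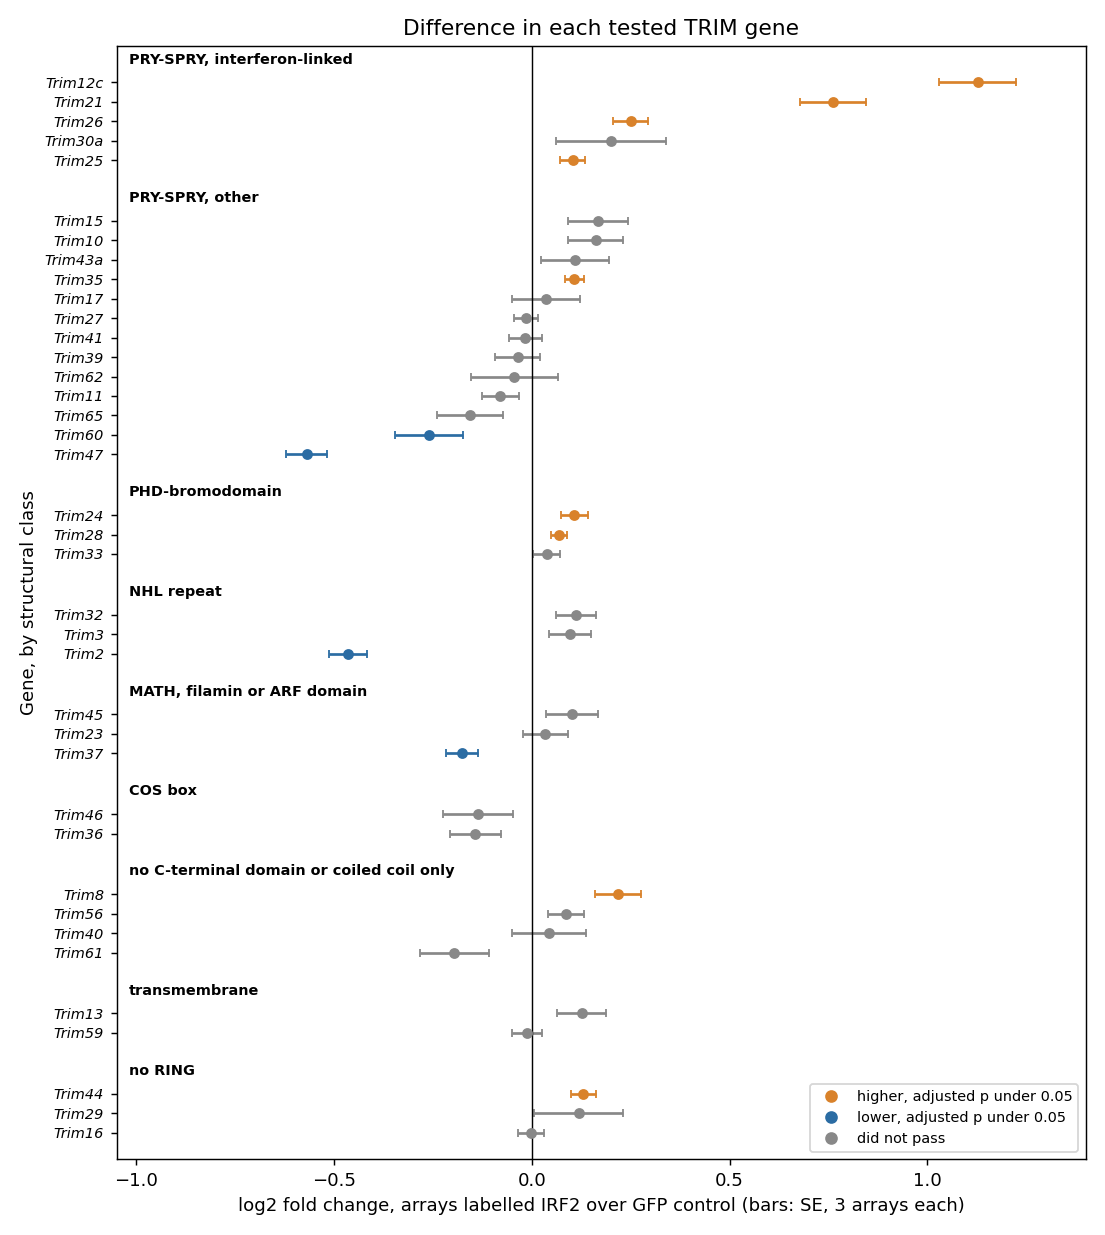
Log2 fold change of each of the 38 tested TRIM genes, IRF2-labelled arrays over GFP control, with SE bars, grouped by structural class. Trim12c (1.13) and Trim21 (0.76) lie farthest to the right and Trim47 (-0.57) and Trim2 (-0.47) farthest to the left; the 25 genes that did not pass (grey) lie between -0.20 and 0.20.

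Smaller falls were seen in Trim37 and Trim60. Trim37, a MATH domain ligase of peroxisomes and centrioles, read 279, 271 and 289 on the GFP arrays and 233, 254 and 255 on the IRF2-labelled arrays. It fell by 0.18 on the log2 scale (SE 0.04, limma adjusted p = 0.00319), and 4 of its 5 probe sets passed with changes from -0.18 to -0.23; the fifth was near the filter and gave -0.08. Trim60 read 29.7, 32.7 and 30.7 against 27.5, 23.0 and 27.5, a log2 change of -0.26 (SE 0.09, limma adjusted p = 0.0272). The arrays did not overlap, but the call was lost without the replicate 2 (-0.22, limma adjusted p = 0.094) or replicate 3 GFP array (-0.27, 0.0613) and without the replicate 2 IRF2-labelled array (-0.17, 0.141). Averaging its probe sets also ended it (-0.08, 0.441), and the value came to -0.17 with 16 added before the log. Its chromosome 8 neighbour Trim61 gave a log2 change of -0.20, from 24.2 ± 2.20 to 21.1 ± 1.30 (SD, n = 3 each), and did not pass (limma adjusted p = 0.0998). The other Trim61 probe set, under the filter, separated the groups in the opposite direction, at 5.90 ± 0.164 on the GFP arrays and 6.41 ± 0.151 on the IRF2-labelled arrays. Averaged over its probe sets, Trim61 came to -0.04 (limma adjusted p = 0.711).

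The nuclear members with a PHD finger and a bromodomain act as transcription cofactors. Trim28, the corepressor that zinc finger repressors bring to chromatin, read 1529, 1501 and 1506 on the GFP arrays and 1594, 1586 and 1574 on the IRF2-labelled arrays. The log2 change was 0.07 (SE 0.02, limma adjusted p = 0.0162), a rise of 1.05-fold. It was lost without the replicate 3 GFP array (0.07, limma adjusted p = 0.067), without the replicate 1 (0.06, 0.0535) or replicate 2 IRF2-labelled array (0.07, 0.0562), and without the intensity trend (0.119). Its other probe set gave 0.05 and did not pass.

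Trim24, a cofactor of nuclear receptors, read 274, 275 and 291 on the GFP arrays against 303, 305 and 296 on the IRF2-labelled arrays. The change was 0.11 (SE 0.03, limma adjusted p = 0.0241). That call was lost without the replicate 1 (0.09, limma adjusted p = 0.0817) or replicate 2 GFP array (0.09, 0.0703), without the replicate 1 (0.10, 0.0646) or replicate 2 IRF2-labelled array (0.10, 0.0865), without the intensity trend (0.0658) and when its probe sets were averaged (0.07, 0.234).

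Trim33, a regulator of SMAD signalling, gave readings that depended on the probe set. The brightest read 406 ± 7.23 and 417 ± 16.8 (SD, n = 3 each) with overlapping arrays (log2 change 0.04, SE 0.03, limma adjusted p = 0.438). The second read 86.9 ± 3.33 and 106 ± 0.228, and with each probe set tested on its own it passed at 0.29 (SE 0.05, limma adjusted p = 0.000527). Which part of the Trim33 transcript each reads is not stated.

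The remaining rises were in Trim8, Trim44 and Trim35. Trim8, a ligase of cytokine signalling, read 88.8, 102 and 102 on the GFP arrays and 112, 116 and 112 on the IRF2-labelled arrays, a log2 change of 0.22 (SE 0.06, limma adjusted p = 0.00748). Its other 2 probe sets above the filter gave 0.13 and -0.02 and did not pass, and the call was lost in the mean of the 3 (0.11, 0.14). Trim44, which lacks a RING domain, rose by 0.13 (SE 0.03, limma adjusted p = 0.00399), from 347 ± 9.41 to 380 ± 4.67 (SD, n = 3 each), and its other 2 probe sets gave 0.12 and 0.13 and did not pass. Trim35, a PRY-SPRY ligase, rose from 871 ± 7.35 to 938 ± 18.6 (0.11, SE 0.02, limma adjusted p = 0.00258), but not when its probe sets were averaged (0.11, 0.0565).

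**Figure D4:**
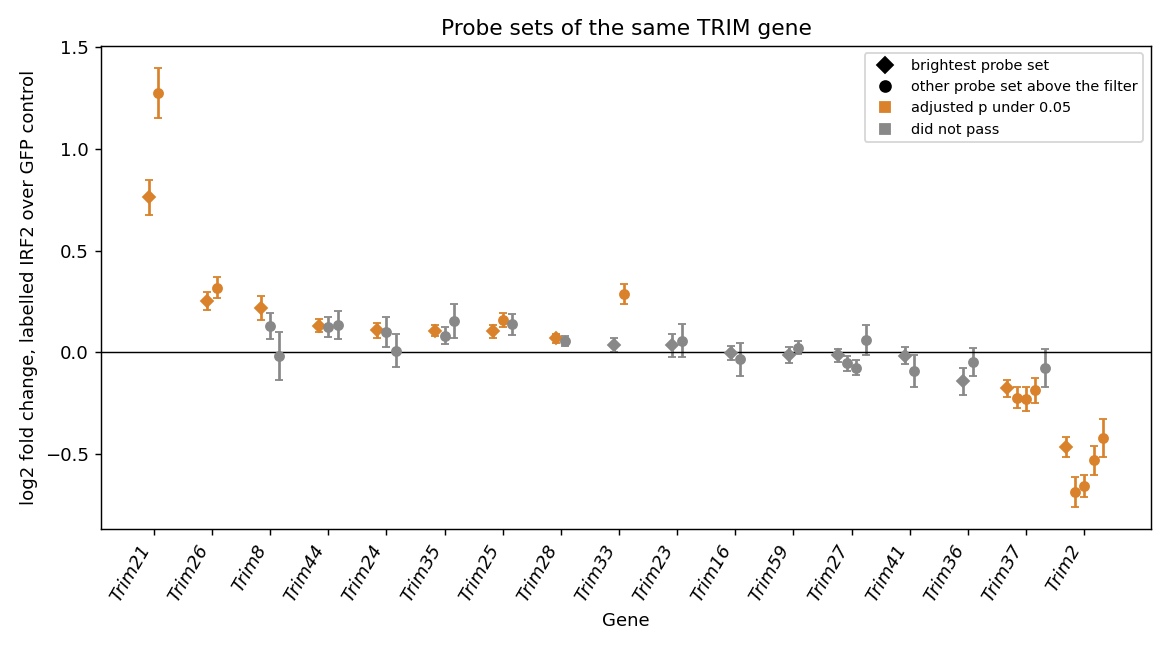
Log2 fold change with SE for every probe set above the intensity filter in the 17 TRIM genes that have more than 1, diamonds marking the brightest and orange those past the threshold when each probe set was tested on its own. All probe sets of Trim21, Trim26 and Trim2 passed, those of Trim33 differ (0.04 and 0.29), and 3 genes (Trim8, Trim27 and Trim59) have probe sets of opposite sign.

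Across the 17 genes with several probe sets above the filter, the sign was the same in all probe sets of 14. In 3 of the 17 every probe set passed, and in 8 some passed and some did not. The 25 tested genes that did not pass had log2 changes between -0.20 and 0.20. In 8 of these the arrays did not overlap, 4 in each direction, with Trim15, Trim13, Trim32 and Trim45 above and Trim61, Trim65, Trim36 and Trim11 below. Over all tested genes, passed or not, the arrays did not overlap in 46.2%. The share over all genes that did not pass was not worked out. The Trim26 neighbours Trim15 and Trim10 gave 0.17 and 0.16 (limma adjusted p = 0.101 and 0.0916). Trim15 passed without the intensity trend (limma adjusted p = 0.0493) and when probe sets of genes were averaged (0.0462), and Trim10 passed without the replicate 3 GFP array (0.21, limma adjusted p = 0.0459) but came to 0.09 without the replicate 2 GFP array (0.341).

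The 20 genes under the filter read between 3.29 and 16.1 over all arrays, with the highest in Trim34a. The muscle ligase genes were among them: Trim63, which encodes MuRF1, read 4.25 ± 0.622 and 4.02 ± 0.630, Trim54 read 6.58 ± 0.897 and 6.17 ± 0.430, and Trim72 read 10.0 ± 0.581 and 10.8 ± 0.824 (SD, n = 3 each). The brain-enriched Trim9 and Trim67 and the embryonic Trim71 were under the filter too. In 6 of the 20 the groups did not overlap, with Trim34a, Trim14, Trim5, Trim66 and Trim9 above and Trim12a below on the IRF2-labelled arrays. Over all genes under the filter the groups did not overlap in 11.8%, and over all tested genes in 46.2%.

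Genes that encode partners of TRIM proteins were read from the same fit. Of 11 tested genes of the RIG-I branch, 5 rose and 2 fell, around a median change of 0.11, where 36.3% of all tested genes passed. That count gives no support of its own, since Dhx58 and Ube2l6 passed the filter only through the arrays on which they were high. The sensor genes Ifih1, which encodes MDA5, and Dhx58 rose by 1.38 and 1.16, the ISG15 conjugating enzyme gene Ube2l6 by 0.87, and the deubiquitinase gene Cyld fell by 0.23 on the log2 scale. Dhx58 and Ube2l6 came to 0.53 and 0.40 with 16 added before the log, and the Cyld call was lost when its probe sets were averaged (-0.09, limma adjusted p = 0.108). Ddx58, which encodes the RIG-I protein that Trim25 modifies, rose by 0.35 (SE 0.06, limma adjusted p = 0.000505; 0.22 when averaged), while Rnf135, another RIG-I ligase gene, gave 0.15 and did not pass. Dhx58 and Ube2l6 read under 11.3 on the GFP arrays.

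Of 12 Trim28 repressor partners, 2 rose and 2 fell, a share near the 36.3% of all tested genes. The heterochromatin protein gene Cbx1 fell by 0.23, its relative Cbx5 rose by 0.11, the remodeller gene Chd4 rose by 0.15 and the deacetylase gene Hdac2 fell by 0.06. Averaged over the probe sets of each gene, Chd4 turned to -0.12 (limma adjusted p = 0.0251) and Cbx5 and Hdac2 came to about 0 (adjusted p = 0.931 and 0.989); Chd4 came to 0.10 without the replicate 3 IRF2-labelled array. The Hdac2 call was lost in each of the 6 runs that left out 1 array, at values from -0.05 to -0.08. Without the intensity trend the calls of Cbx5 (limma adjusted p = 0.0544), Chd4 (0.0622) and Hdac2 (0.188) were lost. Of 11 ubiquitin-conjugating enzyme genes that serve TRIM ligases, Ube2k rose by 0.14 and Ube2d3 fell by 0.07, and the other 9, Ube2n (0.03), Ube2e3 (0.06) and Ube2e2 (-0.08) among them, did not pass (36.3% of all tested genes passed). Both calls were lost when probe sets were averaged (Ube2k 0.09, Ube2d3 turned to 0.05). That of Ube2d3 was also lost without the replicate 1 GFP array and without the replicate 1 or replicate 2 IRF2-labelled array (-0.06 each), and without the intensity trend (limma adjusted p = 0.155). Of TRIM-type genes that carry other symbols, Pml, the nuclear body organiser also called Trim19, rose from 102 ± 7.56 to 118 ± 1.20 (SD, n = 3 each; 0.21, SE 0.06, limma adjusted p = 0.00702), a call that averaging its probe sets ended (0.02, 0.815). Bspry, which has a B-box and a SPRY domain, fell from 81.4 ± 2.16 to 35.2 ± 2.68 (-1.21, SE 0.07; -0.57 when averaged). Mid1, Mefv, Fsd1 and Rnf135 did not pass, and Mid2 and Cmya5 were under the filter.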

How the data were processed

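The deposited intensities are linear probe set values by the authors for 6 arrays; the submitters' processing notes list MAS5 without a role or version, and other steps are not stated. Array medians ran from 18.2 to 18.7, so no scaling was added. Symbols came from the platform annotation, and symbols and gene order were checked against RefSeq GRCm38.p6. A gene was tested only where its mean log2 exceeded the 40th percentile over the non-control probe sets, which is an intensity of 11.3. Group was the sole term in a limma fit of the log2 values (limma 3.58.1, R 4.3.3), moderated by eBayes with its trend option. Tests were two-sided, with Benjamini-Hochberg adjustment over 12795 genes and a threshold of 0.05. The fit was tested on simulated data as a check of the code, which gives no support to any call here. The TRIM genes and all lists were chosen with earlier results of these data known. The naming rule took every TRIM gene past the threshold, with all 6 values where the change was at least 0.3, the paralogs of these, Trim24, Trim28, Trim33, Trim25, Trim21 and Trim56 in any case, and the 4 partners of each list with the smallest p. Further members are given to describe the family. Classes by C-terminal domain were assigned from general knowledge of the family; Trim80 was left out of them. No protein sequences were used here.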

Additional observations from a re-analysis of the deposited data

How the results depend on the processing

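The count of 13 TRIM genes past the threshold stayed between 9 and 16 under the 15 alternatives, each within 1.5 times. With no filter 16 of 58 passed, and with a filter at the 60th percentile 10 of 25, against 24.9% and 46.5% of all genes. Without the intensity trend 11 of 38 passed, and in the mean of probe sets 9 of 34, against 29.7% and 32.8%. That mean kept 8 of the 13, losing Trim12c, Trim24, Trim35, Trim60 and Trim8, and gained Trim15. The count was 13 with 16 added before the log, under quantile normalization, with the robust option and with each probe set tested on its own. These runs kept the same 13 genes. Leaving out 1 array gave 9 to 13 TRIM genes and 3951 to 4399 genes in all, against 4642. Besides Irf2, 43 of the genes named here were followed through the alternatives. None of the TRIM genes among these 43 changed sign in any alternative that gave a value. Trim27 and Trim59, whose probe sets differ in sign, were not among the 43. Averaging the probe sets of a gene turned the sign of 5 partner genes, Cbx5 (-0.0047), Chd4 (-0.12), Hdac2 (0.00096), Ube2d3 (0.048) and Ube2n (-0.0085), of which Ube2n had not passed; the cause was not tested. Trim12c, Trim21 and Trim60 lie under the stricter filter and have no value there, and Trim12c has none in the mean of its probe sets, which falls under the filter. Irf2 stayed lower under all 15 alternatives, between -0.59 and -0.81. The replicate numbers shared by the groups did not pair the arrays: same-numbered arrays had deviation correlations of 0.0633, -0.0562 and 0.00307, and 2 of 6 arrays correlated best with their own number. With the replicate block, 13 TRIM genes (the same genes) and 4678 genes in all were called, and no call among the 43 genes changed. Low signal limits Trim12c, Trim34a, Trim30a and Trim14, whose control values lie near or under the filter.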

Other observations

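Probe sets annotated to several genes were left out of the family and hold further TRIM signal. A probe set shared by Trim34a and Trim34b read 15.5, 17.2 and 17.3 on the GFP arrays and 23.8, 22.9 and 22.1 on the IRF2-labelled arrays, with no overlap. A second probe set for the same pair of genes read 4.35 ± 0.136 and 5.38 ± 0.447 (SD, n = 3 each), at the level of the tryptophan controls. A probe set shared by Trim30b and Gm38525 read 7.57 ± 0.603 on the GFP arrays and was lower, at 6.16 ± 0.374, on the IRF2-labelled arrays. The one shared by Trim30a and Trim30d read 4.94 to 5.14 on the GFP arrays and 4.61 to 5.47 on the others. These values were not part of the fit and carry no test.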
